A study of Mus musculus with 41 samples.

Results

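TSa2i-C57 and TSa2i-14 are lines of mouse androgenetic haploid embryonic stem cells (AG-haESCs), which carry a single set of chromosomes that came from a sperm. To ask how far 2 lines kept in one medium differed from each other, the RNA-seq libraries of TSa2i-C57 at passages 9 and 58 (p9 and p58) were set against those of TSa2i-14 at p22, p47 and p54. These 5 libraries were chosen by line and medium from the sample labels and are all the libraries of the lines among the 13 RNA-seq libraries of the series, which holds 41 samples in all. Both lines are labelled as wild-type with the strain C57BL/6, and the published list of the lines gives the background C57BL/6/actin-EGFP for TSa2i-14 and C57BL/6 for TSa2i-C57. Both were derived in serum with LIF and the inhibitors CGP77675 (Src) and CHIR99021 (GSK3), and were then kept in the serum-free form of that medium (TSa2i/L) on embryonic fibroblast feeders of ICR mice. Each group is 1 line, and its libraries are passages of that line, so the strain, the transgene, the individual embryo and the sampling of passages cannot be told apart. The other 8 RNA-seq libraries, given beside some genes, are not of these lines. They are 2i-14 at p18, p39 and p50, 2i-O48 and 2i-O48-TKO in medium with MEK and GSK3 inhibitors (2i/L), and each of these lines 5 passages after a switch to the serum-free medium. In 2i-O48 and 2i-O48-TKO the H19 and IG control regions are deleted. Line, medium and genotype thus differ among them.

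AG-haESCs are made by injecting a sperm head into an oocyte whose own nucleus has been removed. Whether they keep the methylation marks that sperm set at imprinted genes depends on the medium and the region. The paper reports that lines in TSa2i/L kept high methylation at the H19 and IG control regions in long culture. It calls the mark at Rasgrf1 not stable in these lines and reports it absent in late TSa2i-C57 cells. Its Discussion adds that the other lines tested kept the Rasgrf1 mark stably. DNA methylation at CpG-rich promoters takes part in the silencing of some germline genes in mouse embryonic stem cells. The de novo methyltransferases and their cofactor Dnmt3l are expressed in these cells at levels that depend on the medium. Lines derived from different embryos of one strain also differ through culture, because passaged stem cells can gain or lose stretches of chromosomes and can drift in the silencing of single genes.

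The values are FPKM, fragment counts scaled to transcript length and to the depth of the library, and were compared as log2(FPKM + 1), which understates differences of genes with low values. Of 24028 gene symbols, 10502 had an FPKM of at least 1 in at least 2 of the 5 libraries and were tested with limma. Depth is not given with FPKM values. The depth implied by the smallest values was 12700000 fragments in TSa2i-C57 p9 and 14500000 to 16300000 in the other 4 libraries, so that 3 fragments on a 1 kb transcript correspond to 0.184 to 0.236 FPKM, which covers counting error only. The 10 embryonic stem cell markers were at 14.1 FPKM or above in every library, among them Pou5f1, Nanog and Sox2. Primitive endoderm and trophoblast markers were low, with Cdx2 listed at 0 in all 5 libraries and Gata6 at no more than 0.0963 FPKM.

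Fibroblast RNA differed between single libraries and not along the lines. Dcn, a collagen-binding proteoglycan of fibroblasts, was 3.55, 0.486 and 58.2 FPKM in TSa2i-14 p22, p47 and p54, and 0.0928 and 19.6 FPKM in TSa2i-C57 p9 and p58. The mean log2(FPKM + 1) of 15 fibroblast markers was 0.659, 0.440 and 2.46 in TSa2i-14 p22, p47 and p54, and 0.344 and 1.62 in TSa2i-C57 p9 and p58. The latest passage of each line was thus the richest in these transcripts. Eif2s3y, a Y-linked gene, was likewise 2.07 FPKM in TSa2i-14 p54 and 1.23 FPKM in TSa2i-C57 p58, 0.166 FPKM in TSa2i-14 p22, and listed at 0 in TSa2i-14 p47 and TSa2i-C57 p9. Postn, a matrix protein, was 27.4 FPKM in TSa2i-14 p54, 6.66 FPKM in TSa2i-C57 p58 and listed at 0 in the other 3 libraries, and Fap was listed at 0 in all but TSa2i-C57 p58. Of the 15 markers, 10 passed the filter on low values. In 1 of these, Col1a1, every TSa2i-14 library was above both TSa2i-C57 libraries, against 7.55% of all genes tested. In bulk samples, fewer cells of a type and less RNA per cell cannot be told apart.

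**Figure D1:**
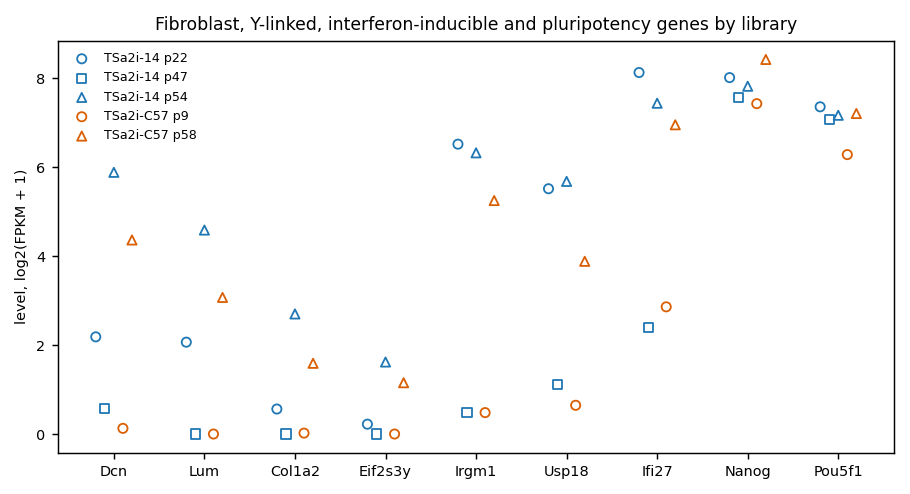
Levels (vertical axis, log2(FPKM + 1)) of fibroblast genes (Dcn, Lum, Col1a2), the Y-linked Eif2s3y, interferon-inducible genes (Irgm1, Usp18, Ifi27) and pluripotency genes (Nanog, Pou5f1), with 1 point per library, blue for TSa2i-14 and orange for TSa2i-C57. Fibroblast genes are highest in TSa2i-C57 p58 and TSa2i-14 p54, the interferon-inducible genes are low in TSa2i-14 p47 and TSa2i-C57 p9, and the pluripotency genes are high in every library.

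No gene passed the test between the lines: limma called 0 of 10502 genes (0%) at an adjusted p of 0.05, the smallest adjusted p was 0.122, and 366 genes had an unadjusted p under 0.05. With 3 residual degrees of freedom, the same fit on simulated data recovered 17% of genes made to differ by a log2 of 1 and 71% of genes made to differ by a log2 of 2, so differences of the smaller size would mostly be missed. The difference was within 0.5 on the log2 scale for 91.9% of the genes, and its median over all genes was -0.02 (TSa2i-C57 minus TSa2i-14). Libraries did not group by line. Pearson's r across genes was 0.968 between the passages of TSa2i-C57 and 0.974 to 0.978 among those of TSa2i-14, and 0.968 to 0.984 between lines, with the highest value between TSa2i-14 p54 and TSa2i-C57 p58. Without TSa2i-14 p54, limma called 9 genes, 5 higher in TSa2i-C57 and 4 higher in TSa2i-14. Leaving out both TSa2i-14 p54 and TSa2i-C57 p58, the libraries with the most fibroblast RNA, leaves TSa2i-C57 p9 alone for its line. Calls of that fit cannot be told apart from traits of the single p9 library, so no count of them is given.

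The lines were therefore read out gene by gene for whether their libraries overlapped. In 881 genes (8.39% of those tested) both TSa2i-C57 libraries were above all TSa2i-14 libraries, in 793 (7.55%) they were below, and in either direction the lines did not overlap in 1674 genes (15.9%). Of these, 71 (0.676%) also differed by at least 1 on the log2 scale between the means of the lines, 35 (0.333%) higher in TSa2i-C57 and 36 (0.343%) higher in TSa2i-14. These counts are descriptions and grow where fewer libraries must be separated. The count of 71 became 117 without TSa2i-14 p22, 114 without TSa2i-14 p47, 189 without TSa2i-C57 p9 and 328 without TSa2i-C57 p58. Under median centring the split of 35 and 36 became 41 higher in TSa2i-C57 and 24 higher in TSa2i-14.

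**Figure D2:**
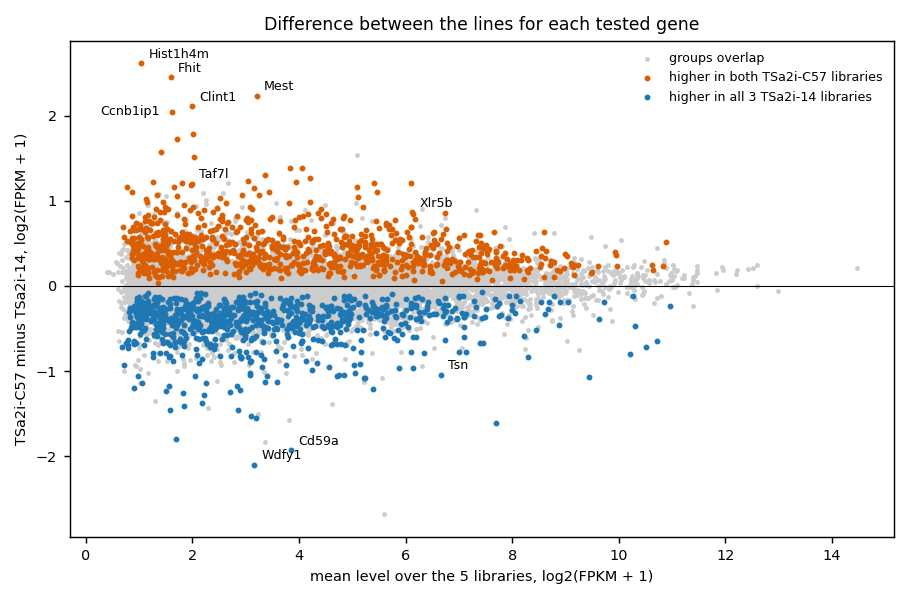
Difference between the lines (vertical axis, TSa2i-C57 minus TSa2i-14, log2(FPKM + 1)) against the mean level over the 5 libraries (horizontal axis, log2(FPKM + 1)) for the 10502 genes tested. Orange points (881) are higher in both TSa2i-C57 libraries, blue points (793) are higher in all 3 TSa2i-14 libraries, and grey points overlap between the lines; none passed an adjusted p of 0.05.

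The widest separation of all was in Wdfy1 (chromosome 1 of mm9, 79698837 to 79772718, minus strand), which encodes an endosomal WD-repeat and FYVE-domain protein. Wdfy1 was 13.5, 17.7 and 14.1 FPKM in TSa2i-14 p22, p47 and p54, and 2.84 and 2.64 FPKM in TSa2i-C57 p9 and p58. All 3 TSa2i-14 libraries were high, both TSa2i-C57 libraries were low, and the other 8 RNA-seq libraries lay between the lines at 6.12 to 11.9 FPKM. The difference was -2.10 on the log2 scale (SE 0.25, limma, n = 2 against 3, unadjusted p = 1.16e-05, adjusted p = 0.122). Over the alternatives the adjusted p for Wdfy1 ran from 0.00129 with the fibroblast mean as a covariate to 0.515 with no filter. Wdfy1 is also the only member of a list of 18 genes known to differ among inbred mouse strains whose lines did not overlap, out of 12 that passed the filter, against 15.9% of all genes tested in either direction. Nnt, a mitochondrial transhydrogenase of that list of which a part is deleted in the C57BL/6J substrain, overlapped, with 7.19, 13.04 and 8.49 FPKM in TSa2i-14 and 5.89 and 9.75 FPKM in TSa2i-C57. Glo1, a detoxifying enzyme that is duplicated in some strains, was 90.2 to 107.9 FPKM in TSa2i-14 and 96.2 to 109.3 FPKM in TSa2i-C57.

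Cd59a (chromosome 2, 103935958 to 103955511, plus strand), a membrane inhibitor of complement, had the next widest gap among genes higher in TSa2i-14. Cd59a was 19.8, 25.5 and 26.2 FPKM in TSa2i-14 p22, p47 and p54, and 6.39 and 4.65 FPKM in TSa2i-C57 p9 and p58, a difference of -1.93 (SE 0.26, limma, adjusted p = 0.145). The other 8 libraries spanned 1.19 to 22.8 FPKM and so covered the levels of TSa2i-C57 and part of those of TSa2i-14. Apom, an apolipoprotein, was 28.97, 31.2 and 29.2 FPKM against 14.7 and 15.2 FPKM in the same order of libraries. Ccdc22 on the X chromosome, a subunit of an endosomal sorting complex, was 13.1, 11.3 and 11.3 FPKM against 5.32 and 6.01 FPKM. Ckmt1, a mitochondrial creatine kinase, was 20.9, 27.4 and 24.2 FPKM against 11.9 and 11.5 FPKM. In these 3 genes the TSa2i-C57 libraries sat close together, and the differences were -0.95, -0.95 and -0.98. Atic, which catalyses the last steps of purine synthesis, was 10.6, 11.6 and 18.2 FPKM against 4.91 and 6.01 FPKM. Krt19, an epithelial keratin, was 7.79, 5.10 and 4.41 FPKM against 1.55 and 1.91 FPKM. Efemp1, an extracellular matrix protein that fibroblasts also make, was 4.51, 4.21 and 5.08 FPKM against 1.28 and 2.17 FPKM. Within each line Efemp1 was highest in the library richest in fibroblast markers, while TSa2i-C57 p58 was below TSa2i-14 p22 and p47, and the part of fibroblast RNA was not tested. The others of the 15 genes with the widest gaps in this direction were Magea4, 1700124L16Rik, Slc35g1, Tsn, Cd3g, Hist1h2bb and Mup6, with differences of -1.04 to -1.80. Hist1h2bb and Mup6 have near-identical copies between which the FPKM estimate may have divided reads.

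Among genes higher in TSa2i-C57, the widest gap was in a histone H4 gene, Hist1h4m (chromosome 13, 21903615 to 21904016, plus strand). It was listed at 7.26e-05, 6.63e-05 and 7.42e-05 FPKM in TSa2i-14 and at 10.5 and 2.26 FPKM in TSa2i-C57 p9 and p58, but histone H4 genes are nearly identical, so this value is uncertain and no fold is given. Fhit (chromosome 14, 10382606 to 11994549, minus strand), a very long gene at a chromosomal fragile site that encodes a dinucleoside hydrolase, was 0.0890, 0.710 and 0.950 FPKM in TSa2i-14 p22, p47 and p54, and 5.09 and 10.6 FPKM in TSa2i-C57 p9 and p58. The difference in Fhit was 2.45 (SE 0.36, limma, adjusted p = 0.198), and the other 8 libraries had 0 to 6.38 FPKM with a median of 0.541. Most of those libraries were therefore closer to TSa2i-14. Ccnb1ip1 (chromosome 14, 51408924 to 51415403, minus strand), a ubiquitin ligase needed for meiotic crossing over, was 0.252, 0.636 and 1.60 FPKM against 5.61 and 6.86 FPKM, a difference of 2.05 (SE 0.33, limma, adjusted p = 0.331).

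Clint1 (chromosome 11, 45665507 to 45724127, plus strand), an adaptor of clathrin-coated vesicles, separated the lines in another way. Clint1 was 2.94, 0.376 and 1.01 FPKM in TSa2i-14 p22, p47 and p54, and 7.20 and 10.2 FPKM in TSa2i-C57 p9 and p58, a difference of 2.11 (SE 0.41, limma, adjusted p = 0.627). The other 8 libraries had 5.50 to 9.96 FPKM, so that every TSa2i-14 library lay below all other libraries. Sco2, which inserts copper into cytochrome c oxidase, showed the opposite arrangement. Sco2 was 5.52, 5.32 and 5.74 FPKM in TSa2i-14 and 11.7 and 11.2 FPKM in TSa2i-C57, and the other 8 libraries had 3.42 to 8.23 FPKM, all below TSa2i-C57. Ptprcap, a CD45-associated protein, was 1.01, 0.493 and 1.78 FPKM against 4.25 and 7.60 FPKM. Cd74, the invariant chain of MHC class II, was 1.26, 0.887 and 1.81 FPKM against 4.04 and 4.24 FPKM. Cd79a, a chain of the B cell receptor, was 0.772, 0.799 and 1.12 FPKM against 3.23 and 2.74 FPKM, whereas Cd3g, a chain of the T cell receptor complex, was higher in TSa2i-14, with 6.68, 14.5 and 18.4 FPKM against 3.52 and 3.62 FPKM. The others of the 15 were Cysrt1, Taf7l, Rln1, Cryga, Xlr5b, Plac9b and 1500009L16Rik, with differences of 0.86 to 1.78.

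**Figure D3:**
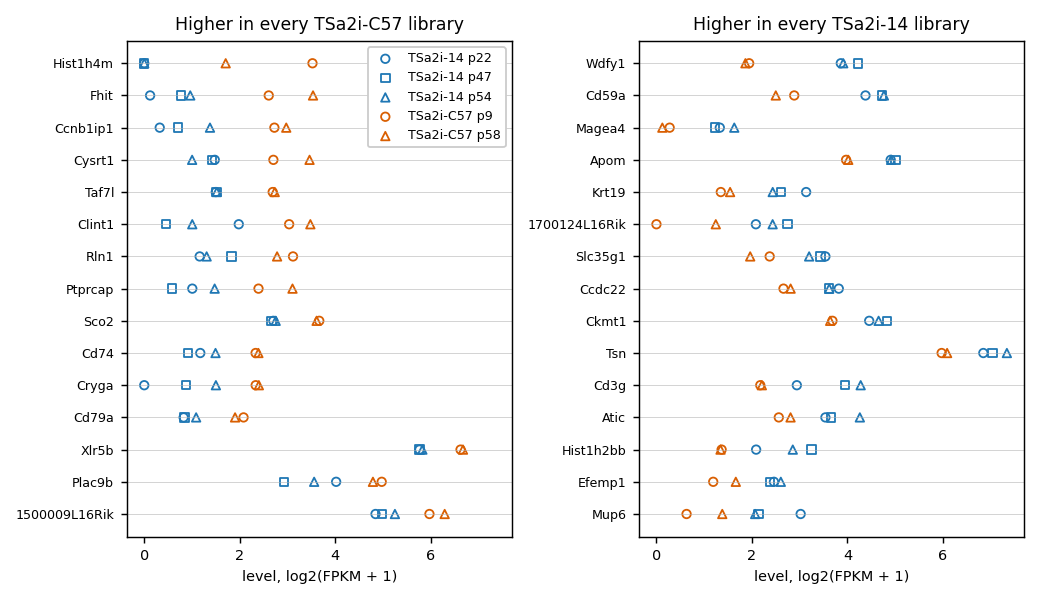
Levels (horizontal axis, log2(FPKM + 1)) of the 15 genes with the widest gap between the lines in each direction, with 1 point per library, blue for TSa2i-14 (circle p22, square p47, triangle p54) and orange for TSa2i-C57 (circle p9, triangle p58). In every gene shown the 2 orange points lie on one side of the 3 blue points, with Wdfy1 at 13.5 to 17.7 FPKM in TSa2i-14 and 2.64 to 2.84 FPKM in TSa2i-C57.

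Some members of a list of germline genes known to be silenced by DNA methylation were higher in both TSa2i-C57 libraries. Of 28 listed genes, 23 passed the filter, and in 7 of them (Sycp1, Sycp3, Taf7l, Stk31, Tex15, Rpl10l and Tdrkh) both TSa2i-C57 libraries were above all TSa2i-14 libraries, against 8.39% of all genes tested. No member was higher in every TSa2i-14 library, none was called by limma, and the median difference of the 23 genes was 0.25. The split of 7 and 0 depended on the libraries, with 10 higher in TSa2i-C57 and 7 higher in TSa2i-14 without TSa2i-C57 p9, 13 and 4 without TSa2i-C57 p58, 10 and 8 with late passages only, 7 and 3 without TSa2i-14 p22, and 9 and 0 without TSa2i-14 p47 or without TSa2i-14 p54. Under median centring and under quantile normalization 5 members were higher in both TSa2i-C57 libraries, and under the latter 1 was higher in every TSa2i-14 library. Leaving out TSa2i-C57 p9 lowered that median to 0.14 and leaving out TSa2i-C57 p58 raised it to 0.38. The upstream 250 bases of 4 of these genes are shown because each holds the E-box CACGTG, which MAX and MGA of a repressor complex of germline genes recognise, among closely spaced CpG sites. A match describes these letters only. The sequences are from RefSeq (GRCm38.p6), run 5′ to 3′ on the gene's strand up to its start, and have CACGTG in capitals.
Sycp1, chr3:102936101-102936350, minus strand: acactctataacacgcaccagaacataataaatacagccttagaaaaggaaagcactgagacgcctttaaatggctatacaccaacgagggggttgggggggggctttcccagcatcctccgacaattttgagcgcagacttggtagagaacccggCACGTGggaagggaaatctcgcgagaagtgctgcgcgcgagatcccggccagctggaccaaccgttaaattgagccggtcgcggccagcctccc
Sycp3, chr10:88459337-88459586, plus strand: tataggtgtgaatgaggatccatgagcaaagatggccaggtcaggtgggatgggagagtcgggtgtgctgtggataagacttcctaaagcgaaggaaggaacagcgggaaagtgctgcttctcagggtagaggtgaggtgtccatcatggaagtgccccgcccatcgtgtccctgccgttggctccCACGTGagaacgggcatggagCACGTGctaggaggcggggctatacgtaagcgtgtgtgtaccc
Taf7l, chrX:134476491-134476740, minus strand: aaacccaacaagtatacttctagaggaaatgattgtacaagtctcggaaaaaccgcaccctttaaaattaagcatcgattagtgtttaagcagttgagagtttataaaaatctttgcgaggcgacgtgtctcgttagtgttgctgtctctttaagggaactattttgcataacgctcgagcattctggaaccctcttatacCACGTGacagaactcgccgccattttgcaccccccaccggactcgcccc
Stk31, chr6:49395289-49395538, plus strand: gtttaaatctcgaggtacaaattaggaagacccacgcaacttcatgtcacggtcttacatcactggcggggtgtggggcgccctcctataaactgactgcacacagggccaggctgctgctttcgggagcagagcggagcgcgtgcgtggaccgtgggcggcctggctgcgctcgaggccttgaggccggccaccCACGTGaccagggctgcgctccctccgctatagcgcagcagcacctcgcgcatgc

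CACGTG, a palindrome and so the same on both strands, occurred once in the windows of Sycp1, Taf7l and Stk31 and 2 times in that of Sycp3, and these windows held 17, 14, 21 and 12 CpG sites in the order Sycp1, Taf7l, Stk31 and Sycp3. Over 27025 RefSeq windows of the same length, 1634 (6.05%) held CACGTG, and the median was 6 CpG sites. A promoter was given for 20 of the 23 tested germline genes. CACGTG was found in 4 of the 6 genes higher in TSa2i-C57 and in 7 of the other 14, and the difference between these shares was not tested.

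The germline genes differed in size of separation. Sycp3 (chromosome 10, 87922314 to 87935981, plus strand), a structural protein of the meiotic chromosome axis, was 22.4, 33.6 and 33.7 FPKM in TSa2i-14 p22, p47 and p54, and 93.2 and 51.3 FPKM in TSa2i-C57 p9 and p58. Sycp1 (chromosome 3, 102622422 to 102740023, minus strand), which joins those axes, was 0.582, 0.477 and 1.16 FPKM against 3.64 and 2.44 FPKM. In both genes TSa2i-C57 p9 was the highest library of the comparison, and the differences were 1.21 (SE 0.30) and 1.22 (SE 0.28). Taf7l (X chromosome, 130994657 to 131011029, minus strand), a germ cell form of a general transcription factor subunit, was 1.83, 1.85 and 1.86 FPKM against 5.45 and 5.65 FPKM, with almost no spread inside either line. The other 8 libraries spanned 8.75 to 95.3 FPKM of Sycp3, 1.09 to 5.44 FPKM of Sycp1 and 1.58 to 6.8 FPKM of Taf7l. These ranges cover the levels of TSa2i-C57, which were thus not particular to that line. Stk31, a kinase-domain protein of male germ cells, was 5.63, 5.37 and 4.36 FPKM against 8.30 and 6.87 FPKM. Rpl10l, the testis copy of a ribosomal protein gene, was 40.3, 40.5 and 60.7 FPKM against 61.2 and 84.8 FPKM. Tex15 and Tdrkh, which act in piRNA pathways, differed by 0.25 and 0.30. Dazl, an RNA-binding protein of germ cells, overlapped at 2.50, 3.38 and 2.40 FPKM against 4.95 and 1.69 FPKM. Ddx4, a germ cell RNA helicase, and Mael, a piRNA pathway protein, overlapped too. In Hormad1 the libraries of TSa2i-C57 were the highest and the lowest of the 5, at 59.1 and 11.2 FPKM, with 33.1 to 44.7 FPKM in TSa2i-14.

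The X-linked multicopy list held the Xlr genes, relatives of the synaptonemal complex gene Sycp3, together with Rhox homeobox genes and Mage genes, which are mostly transcribed in germ cells and placenta. All 9 Xlr genes listed (Xlr3a to Xlr3c, Xlr4a to Xlr4c and Xlr5a to Xlr5c) were higher in both TSa2i-C57 libraries. Of the 21 members that passed the filter, 9 were higher in TSa2i-C57 and 3 in TSa2i-14, against 8.39% and 7.55% of all genes tested. Xlr5b (X chromosome, 70394135 to 70404211, plus strand) was 53.3, 53.5 and 55.7 FPKM in TSa2i-14 and 97.6 and 101.2 FPKM in TSa2i-C57, a difference of 0.86 (SE 0.20, limma, adjusted p = 0.778). Xlr5a was 38.5, 41.6 and 38.97 FPKM against 64.5 and 66.6 FPKM, and Xlr3a was 229.9, 156.1 and 197.1 FPKM against 299.8 and 235.6 FPKM. These copies share sequence and lie in one cluster, so reads may have been divided among them and the 9 values are not independent. Under median centring the members of the list higher in both TSa2i-C57 libraries numbered 8. The other 8 libraries spanned 21.99 to 129.3 FPKM of Xlr5b, which covers both lines. Rhox genes did not follow the Xlr genes. Rhox6 was 70.0, 68.6 and 66.7 FPKM in TSa2i-14 and 34.1 and 68.3 FPKM in TSa2i-C57, and Rhox9 was 34.4, 38.8 and 40.6 FPKM against 21.3 and 35.1 FPKM. Magea4, Magea5 and Rhox1 were higher in every TSa2i-14 library, and Magea4 was 1.51, 1.34 and 2.095 FPKM against 0.212 and 0.0895 FPKM. Over the 21 members that passed the filter the median difference was 0.45, which became 0.29 without TSa2i-C57 p58.

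Most tested genes of the DNA methylation machinery overlapped between the lines, and those that did not went in both directions. Dnmt3b (chromosome 2, 153475186 to 153513466, plus strand), a de novo methyltransferase, was 9.97, 8.36 and 7.24 FPKM in TSa2i-14 p22, p47 and p54, and 3.92 and 4.70 FPKM in TSa2i-C57 p9 and p58. The difference in Dnmt3b was -0.84 (SE 0.26, limma, unadjusted p = 0.00994, adjusted p = 0.999). In the other 8 libraries Dnmt3b was 5.82 to 11.9 FPKM, so that the TSa2i-C57 libraries were the lowest of all. Dnmt3l, a cofactor without catalytic activity of its own, was 57.9, 61.3 and 34.6 FPKM against 17.1 and 30.7 FPKM. Trim28, the corepressor that zinc finger proteins recruit to imprinted regions, was 114.8, 139.5 and 123.5 FPKM against 62.7 and 103.9 FPKM. Dnmt3a overlapped, at 0.979 to 1.20 FPKM in TSa2i-14 and 0.511 and 1.03 FPKM in TSa2i-C57. The maintenance genes Dnmt1 and Uhrf1 overlapped between the lines. So did Zfp57, which binds methylated imprinted regions, at 78.0, 55.3 and 98.7 FPKM against 65.0 and 95.1 FPKM. Tdg, a glycosylase in active demethylation, was the member higher in both TSa2i-C57 libraries, at 1.54, 1.32 and 0.796 FPKM against 2.25 and 1.88 FPKM. Of 21 members that passed the filter, 3 were higher in every TSa2i-14 library and 1 in every TSa2i-C57 library, against 7.55% and 8.39% of all genes tested. In either direction the share of all genes was 15.9%, so these counts are not read as a result about the list. Their median difference was -0.20, which became -0.08 without TSa2i-C57 p9 and -0.34 without TSa2i-C57 p58. The counts became 6 higher in TSa2i-C57 and 7 higher in TSa2i-14 without TSa2i-C57 p9, and 2 and 13 without TSa2i-C57 p58.

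The glycolytic genes that separated the lines were higher in TSa2i-14. Of 23 genes that passed the filter, 5 were higher in every TSa2i-14 library (Pfkp, Aldoa, Gapdh, Pkm and Ldha) and none in every TSa2i-C57 library, against 7.55% and 8.39% of all genes tested. Ldha, which turns pyruvate into lactate, was 1502, 1005 and 530.6 FPKM in TSa2i-14 p22, p47 and p54, and 374.0 and 522.9 FPKM in TSa2i-C57 p9 and p58. Levels in TSa2i-14 were thus lowest at p54, which nearly met TSa2i-C57 p58. Aldoa, the aldolase of glycolysis, was 2026, 1979 and 1417 FPKM against 1009 and 1171 FPKM, and Pkm, pyruvate kinase, was 528.0, 389.4 and 299.9 FPKM against 167.0 and 293.6 FPKM. Pkm thus nearly met in the same libraries as Ldha. Between the nearest libraries of the lines, Gapdh and Pfkp differed by only 0.04 and 0.05 on the log2 scale, and Aldoa by 0.27. Ldhb, which favours the reverse reaction of Ldha, was 294.1, 320.0 and 246.4 FPKM against 636.6 and 304.2 FPKM and overlapped. The median difference of the 23 genes was -0.44, and it became -0.21 without TSa2i-14 p47 and -0.21 without TSa2i-C57 p9. Over all alternatives it ran from -0.78 without TSa2i-14 p54 and TSa2i-C57 p58 to -0.16 with late passages only. Under median centring 3 members were higher in every TSa2i-14 library, and under quantile normalization 6. In the cholesterol and fatty acid list, Hmgcs1, Lss, Mvd and Acaca of 26 genes were higher in every TSa2i-14 library and none was higher in every TSa2i-C57 library, against the same shares of all genes, with a median of -0.19. That median became -0.09 without TSa2i-14 p47 and -0.05 without TSa2i-C57 p9. Hmgcs1, the enzyme that makes HMG-CoA, was 45.1, 32.5 and 29.5 FPKM against 11.97 and 22.7 FPKM.

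**Figure D4:**
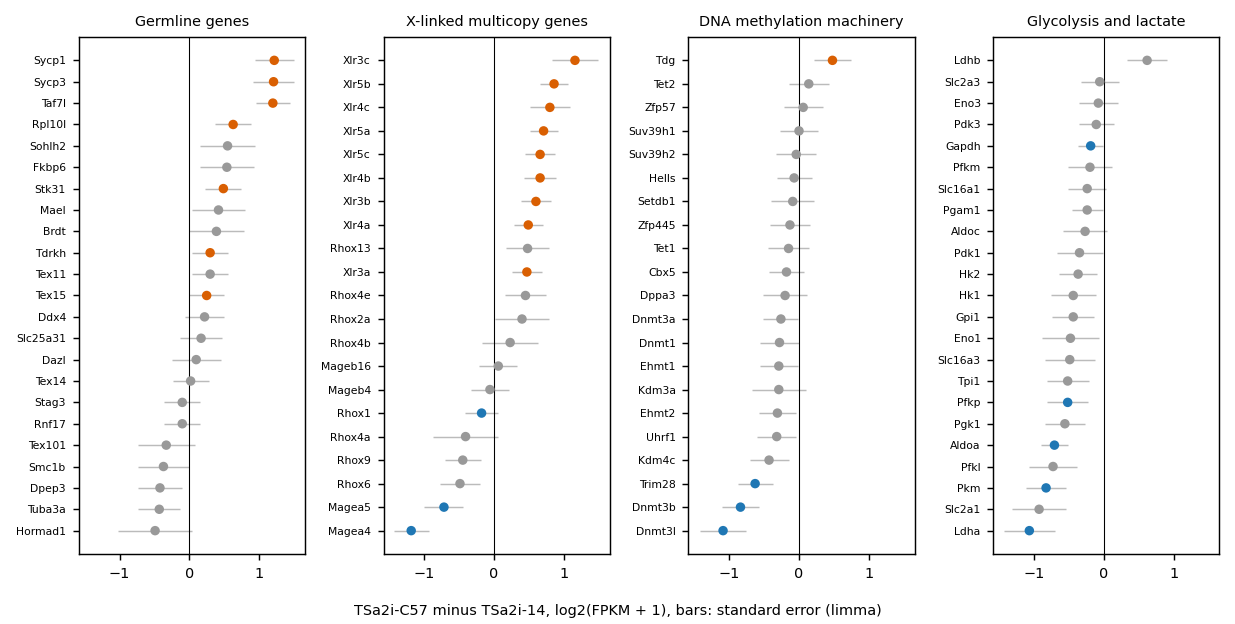
Difference between the lines (horizontal axis, TSa2i-C57 minus TSa2i-14, log2(FPKM + 1), bars are the limma standard error) for the tested members of 4 gene lists. Orange points are higher in both TSa2i-C57 libraries (7 germline and 9 Xlr genes), blue points are higher in all 3 TSa2i-14 libraries (among them Dnmt3b, Dnmt3l and Ldha), grey points overlap, and none passed an adjusted p of 0.05.

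Interferon-inducible genes had the lowest median difference of the lists, -0.65 over 22 genes, but they followed single libraries and not the lines. Irgm1, an immunity-related GTPase, was 90.8, 0.401 and 79.2 FPKM in TSa2i-14 p22, p47 and p54, and 0.397 and 37.1 FPKM in TSa2i-C57 p9 and p58. Usp18, which removes the ubiquitin-like protein ISG15, was 44.8, 1.16 and 50.4 FPKM against 0.566 and 13.8 FPKM, and Ifi27 was 279.6, 4.29 and 172.9 FPKM against 6.27 and 123.2 FPKM. Each line thus held a library with low levels of these genes. Oas1a, which makes oligoadenylates in response to double-stranded RNA, was the only one of the 22 that did not overlap, against 15.9% of all genes tested. Its levels were 75.0, 33.9 and 75.0 FPKM against 20.01 and 29.4 FPKM. The median became -1.33 without TSa2i-14 p47, -0.29 without p54, -0.03 without TSa2i-C57 p9 and -1.41 without p58, and with late passages alone it was 0.35. Fibroblast markers were high in 2 of the 3 libraries with high interferon-inducible genes and low in the third, TSa2i-14 p22, and their part in these values was not tested. No member of the MHC class I list separated the lines (13 genes, median -0.03), against the same 15.9% of all genes. B2m, the invariant light chain, was 114.2, 183.3 and 447.2 FPKM against 284.2 and 339.4 FPKM.

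Pluripotency genes differed little in the median. Of the 18 naive genes, 3 were higher in every TSa2i-14 library and 0 in both TSa2i-C57 libraries. Among all genes tested these shares were 7.55% and 8.39%, and the other counts of this paragraph stand beside them. In the naive list of 18 genes the median difference was -0.07, and Nanog, Esrrb and Klf4 overlapped between the lines. Tfcp2l1, a transcription factor downstream of LIF and GSK3 inhibition, was 30.9, 75.1 and 51.9 FPKM in TSa2i-14 and 23.7 and 22.2 FPKM in TSa2i-C57, and the other 8 libraries had 15.4 to 31.8 FPKM. TSa2i-14 p47 and p54 were thus above all others. Klf5 and Gbx2, further naive factors, were also higher in every TSa2i-14 library, by 0.45 and 0.53 on the log2 scale. Of 14 general and formative genes, Lin28a, a blocker of let-7 maturation, and Zscan10 were higher in every TSa2i-14 library, and Fgf4, the growth factor that drives exit from the naive state, was 43.7, 47.6 and 42.7 FPKM against 51.0 and 59.6 FPKM. Pramel6 and Pramel7, reducers of DNA methylation in naive cells, were higher in every TSa2i-14 library among 9 genes of their list (median 0.05), with Pramel7 at 3.36, 1.77 and 4.61 FPKM against 1.25 and 0.454 FPKM. The 2 two-cell stage genes that passed the filter had a median of 0.35, and Zfp809, a repressor of retroviral elements, was higher in both TSa2i-C57 libraries.

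In the signalling and lineage lists 1 to 3 genes each separated the lines, against 15.9% of all genes tested. Among 16 MEK-ERK genes (median -0.14), Etv5 and Dusp9 were higher in every TSa2i-14 library, while Dusp6, Spry4 and Spry2, feedback inhibitors of the pathway, overlapped. In 6 Wnt targets (median -0.05), Cdx1 was higher in TSa2i-14, at 2.94, 3.07 and 3.39 FPKM against 1.20 and 2.11 FPKM, and Ascl2 was higher in TSa2i-C57. In 12 Nodal and BMP targets (median -0.28), Id1 was higher in both TSa2i-C57 libraries and Dusp9 in every TSa2i-14 library, and Lefty1, Lefty2 and Nodal overlapped. Among 14 LIF-STAT3 genes (median -0.15), Gadd45g was higher in TSa2i-C57, and Tfcp2l1 and Bcl3 were higher in TSa2i-14. Of 10 primitive endoderm genes that passed (median 0.00), Hhex and Srgn were higher in TSa2i-C57, of 11 trophoblast genes (median -0.06), Ascl2 was higher in TSa2i-C57 and Krt19 in TSa2i-14, and of 6 early differentiation genes (median -0.34), Cdh2 was higher in TSa2i-14.

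Imprinted genes had medians of -0.02 over 21 paternally expressed and 0.02 over 15 maternally expressed genes. Mest (chromosome 6, 30673547 to 30698457, plus strand), a hydrolase-like gene expressed from the paternal copy, was 15.7, 1.03 and 2.68 FPKM in TSa2i-14 p22, p47 and p54, and 18.2 and 27.7 FPKM in TSa2i-C57 p9 and p58. TSa2i-14 p22 was near TSa2i-C57 p9, and the later TSa2i-14 passages were below the 11.98 to 35.8 FPKM of the other 8 libraries. The difference in Mest was 2.23 (SE 0.70, limma, adjusted p = 0.999). Slc38a4, a paternally expressed amino acid transporter, was 24.6, 24.9 and 22.3 FPKM against 40.5 and 32.7 FPKM, and Peg3, a zinc finger gene, was 2.87, 2.75 and 3.50 FPKM against 1.29 and 2.01 FPKM. Among maternally expressed genes, Ascl2 and Slc22a18 were higher in both TSa2i-C57 libraries and Ube3a, a ubiquitin ligase, was higher in every TSa2i-14 library. Each of the imprinted lists thus had 2 members higher in TSa2i-C57 and 1 higher in TSa2i-14, against 8.39% and 7.55% of all genes tested. H19 and Igf2, which share an imprinted control region, did not pass the filter. H19 was 2.88 FPKM in TSa2i-14 p54 and 0.818 FPKM in TSa2i-C57 p58, the libraries with the most fibroblast RNA, 0.210 FPKM in TSa2i-14 p22, and listed at 0 in TSa2i-14 p47 and TSa2i-C57 p9. The part of fibroblast RNA in H19 was not tested.

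The remaining lists held few genes that separated the lines, and their counts stand beside 8.39% higher in TSa2i-C57 and 7.55% higher in TSa2i-14 among all genes tested. In 22 p53 targets (median 0.02), Gdf15, a stress cytokine, was 20.2, 21.02 and 26.5 FPKM against 41.2 and 31.8 FPKM, Sesn1 was higher in TSa2i-C57 as well, and Ei24 was higher in TSa2i-14. Cdkn1a, Mdm2 and Ccng1, the main readouts of p53 activity, overlapped. In 29 cell cycle genes (median -0.13), Ccnd3, E2f1 and Cdc20 were higher in every TSa2i-14 library, and Ccnd3, a D-type cyclin, was 199.9, 136.8 and 149.5 FPKM against 101.6 and 109.8 FPKM. Of 20 amino acid stress genes (median -0.05), Slc3a2 and Cth were higher in TSa2i-C57. Of 22 glutathione S-transferases (median 0.15), Gstm2 and Gstm6 were higher in TSa2i-C57 and Gsta3 in TSa2i-14, and these genes have close paralogues. Of 18 adhesion genes (median -0.02), Ocln, a tight junction protein, was higher in TSa2i-C57 and Cdh2, N-cadherin, in TSa2i-14.

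Chromosome medians were even, from -0.053 on chromosome 11 to 0.016 on chromosome 16, with 0.012 on the X chromosome. Within chromosomes, 215 windows of 10 Mb held at least 15 tested genes. The window that starts at 120 Mb of chromosome 1 had the lowest median, -0.49, while the next lowest was -0.21 and the highest 0.22. In this window the genes from Tsn to Slc35f5 (chromosome 1 of mm9, 120195094 to 127492261, a stretch of 7.3 Mb) were followed up, and since their limits were set after the values were seen they are described with no test. Of its 19 tested genes, 12 were higher in every TSa2i-14 library, 1 (2900060B14Rik) in every TSa2i-C57 library and 6 overlapped, and 18 of 19 had the lower mean in TSa2i-C57. The median difference was -0.64, or 1.56-fold, against -0.10 for the 10 nearest genes on each side. Because the limits were set with the values known, the contrast with these neighbours is in part a product of the limits. Over the 500 other genes of chromosome 1 it was -0.0034, with 27 higher in every TSa2i-14 library and 42 in every TSa2i-C57 library.

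The genes of the stretch have unrelated roles. Tsn, which encodes the nucleic acid binding protein translin, was 114.0, 130.2 and 160.9 FPKM in TSa2i-14 p22, p47 and p54, and 61.8 and 67.0 FPKM in TSa2i-C57 p9 and p58. Actr3, a subunit of the actin-nucleating Arp2/3 complex at the other side of the stretch, was 61.3, 92.0 and 77.3 FPKM against 37.2 and 39.9 FPKM. Insig2, which retains sterol sensors in the endoplasmic reticulum, was 18.1, 22.1 and 23.1 FPKM against 12.3 and 12.3 FPKM. In these 3 genes TSa2i-14 p22 was the lowest of its line. Ralb, a small GTPase, was 36.2, 51.7 and 47.6 FPKM against 19.5 and 27.3 FPKM, and Ddx18, an RNA helicase of ribosome assembly, was 35.0, 40.8 and 49.8 FPKM against 17.6 and 25.8 FPKM. Dbi, an acyl-CoA binding protein and the most highly expressed gene of the stretch, was 1550, 2402 and 2208 FPKM against 1514 and 1104 FPKM. Relative to the mean of all 13 RNA-seq libraries, the median of the 19 genes was 0.21, 0.70 and 0.74 in TSa2i-14 p22, p47 and p54, and -0.07 and -0.15 in TSa2i-C57 p9 and p58. The 8 libraries that played no part in finding the stretch lay at -0.44 to -0.06, on the side of TSa2i-C57. The 13-library mean includes TSa2i-14, and the genes were picked for high values there. Values below 0 in the other libraries therefore follow in part from that choice. TSa2i-14 stood above every other library over these genes, more so at p47 and p54 than at p22, while the rest of chromosome 1 ran from -0.12 to 0.15 over the 13 libraries. Copy number was not tested.

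**Figure D5:**
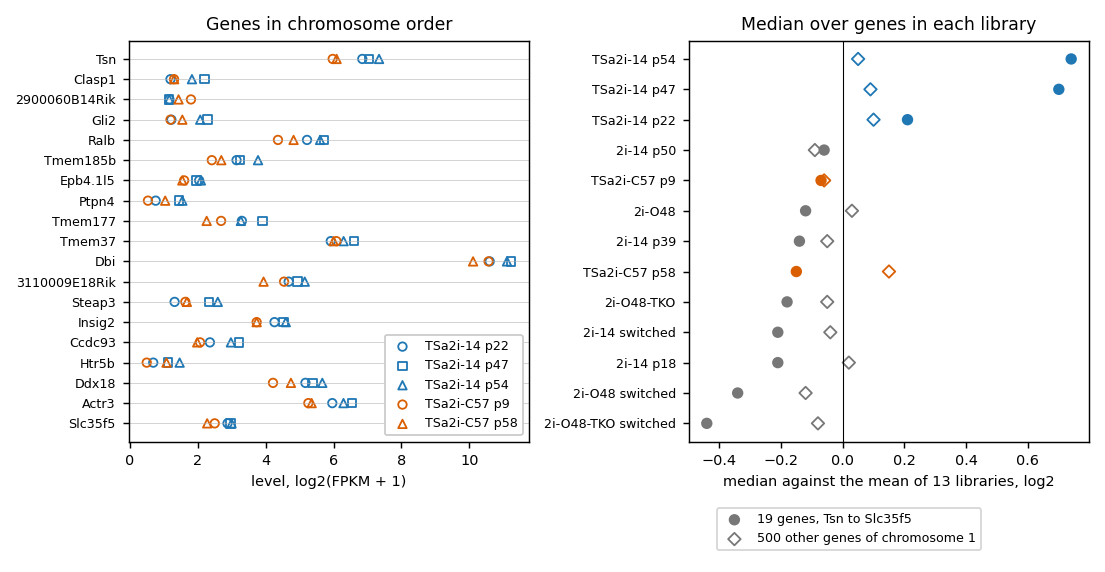
Left, levels (horizontal axis, log2(FPKM + 1)) of the 19 genes from Tsn to Slc35f5 in chromosome order, with 1 point per library, blue for TSa2i-14 and orange for TSa2i-C57. Right, the median over these genes (filled circles) and over the 500 other genes of chromosome 1 (open diamonds) in each of the 13 RNA-seq libraries, as log2 difference from the 13-library mean. In the filled circles TSa2i-14 p22, p47 and p54 have 0.21, 0.70 and 0.74 and all other libraries lie below 0. The mean includes TSa2i-14, and the 19 genes were picked for high values there.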

How the data were processed

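RNA-seq libraries were made from small numbers of haploid cells by amplifying full-length cDNA. The paper describes sorting to enrich the lines for haploid cells, and its RNA-seq method does not mention it. The authors aligned them to mm9 (TopHat) and deposited per-gene FPKM computed by Cufflinks, without counts. The submitters' processing notes name TopHat2 2.0.11, Bowtie2 2.2.2 and Cufflinks 2.2.1, and the annotation and strandedness are not given in the sources used here. Each file held 24525 rows with 24028 symbols, and rows of a repeated symbol were summed. Genes that reached 1 FPKM in 2 or more of the 5 libraries were tested on log2(FPKM + 1), a pseudocount of 1, with limma 3.58.1 (R 4.3.3, intensity trend, Benjamini-Hochberg adjustment at 0.05); p-values measure only the spread between passages of 1 line each. An exact test of a single gene over 10 splits of 5 libraries cannot pass 0.05 and was not run. The tests were checked on simulated data with 100 genes changed at each of 2 sizes among 10502. Gene positions (mm9) were taken from GENCODE vM1 for 20822 symbols. Depth was estimated from the smallest FPKM values of 3737 genes with 1 annotated transcript. Methylation and ChIP-seq samples were not analysed here.

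The comparison and the 26 gene lists and 5 marker lists were chosen with earlier results of these data known. Genes named are the 15 widest gaps in each direction between lines that do not overlap, without short RNAs, and in each list the first 3 members and the 3 widest gaps; other genes named, among them the Xlr3, Xlr4, Hormad1, Stk31, Rpl10l, Tex15, Tdrkh, Ldhb, Pkm, Ldha, Trim28, Zfp57, Irgm1, Usp18 and Ifi27 genes, Mvd, Magea5 and those of the chromosome 1 stretch, were chosen after their values were seen. Python 3.11.15, numpy 2.4.6, pandas 2.3.3, scipy 1.17.1 and matplotlib 3.10.9 were used.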

Additional observations from a re-analysis of the deposited data

How the results depend on the processing

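Passages of 1 line each, 2 against 3, limit every comparison, and the sequencing depth is known only as an estimate. At a pseudocount of 0.1, without a filter on low values, with a mean FPKM of at least 5, under median centring or quantile normalization, with the highest row of a repeated symbol, without the intensity trend and with passage class as a covariate, limma again called 0 genes. It called 1 gene with late passages only, 2 genes in a fit of all 8 wild-type libraries, 14 genes (10 higher in TSa2i-C57) with the fibroblast mean as a covariate and 49 genes without TSa2i-14 p54 and TSa2i-C57 p58, and 0 to 9 genes when each library was left out in turn. In 1324 refits of 81 named genes whose lines do not overlap, 0 reversed. These genes were chosen because their lines do not overlap, so leaving out libraries could not reverse them. The count is therefore no measure of stability.

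The count of genes that do not overlap and differ by at least 1 was 71. It was 161 at a pseudocount of 0.1, 40 with a mean FPKM of at least 5, 209 with late passages only, 284 without TSa2i-14 p54 and TSa2i-C57 p58, and 92 to 328 when each library was left out; settings with fewer libraries have fewer values to separate. The split of that count moved from 35 and 36 (higher in TSa2i-C57 and in TSa2i-14) to 41 and 24 under median centring. The spread of chromosome medians, 0.069, was 0.065 to 0.120 with each library left out and 0.155 without TSa2i-14 p54 and TSa2i-C57 p58; the cause was not tested. The median difference of the interferon-inducible genes reversed to 0.35 with late passages only, and the cause was not tested. The chromosome 1 stretch kept a negative median, -0.55 to -0.83, under all 13 alternatives run. Its genes were picked for that sign in the same libraries, so this is no independent check. With a pseudocount of 0.1 the fibroblast mean was -1.11, -1.77 and 1.86 in TSa2i-14 p22, p47 and p54 and -2.03 and 0.841 in TSa2i-C57 p9 and p58, in the same order of libraries as with 1.

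No paired analysis was possible because the lines share no passage and no label ties a library of one line to a library of the other.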

Other observations

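Genes outside the lists, chosen after their values were seen, showed further differences between the lines or between single libraries. Trh (chromosome 6 of mm9, 92192055 to 92194644, minus strand), the precursor of thyrotropin-releasing hormone, was 535.3, 286.8 and 217.7 FPKM in TSa2i-14 p22, p47 and p54, and 76.5 and 143.4 FPKM in TSa2i-C57 p9 and p58, a difference of -1.61 on the log2 scale (SE 0.38, limma, adjusted p = 0.778). The other 8 libraries spanned 6.26 to 346.3 FPKM of Trh. Eno1b, a processed copy of the enolase gene with near-identical sequence, was 1894, 1360 and 1251 FPKM against 805.1 and 891.3 FPKM, whereas Eno1 itself overlapped at 14.8, 6.32 and 4.55 FPKM against 5.10 and 5.31 FPKM, so reads of enolase may have been assigned to the copy. Srp54b, one of several copies of a signal recognition particle gene, was 128.4, 90.1 and 87.9 FPKM against 62.5 and 53.3 FPKM.

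Cbr3, a carbonyl reductase, was 137.0 FPKM in TSa2i-C57 p58 and 29.2 FPKM in TSa2i-C57 p9, with 11.8, 21.4 and 37.0 FPKM in TSa2i-14, and no other library of the 13 exceeded 56.8 FPKM. Snhg9, a short host gene of a small nucleolar RNA, had 92.4 to 107.2 FPKM in TSa2i-14 and 252.6 FPKM in TSa2i-C57 p9 but was listed at 0 in TSa2i-C57 p58, and the other 8 libraries had 42.6 to 195.4 FPKM. Actb, a housekeeping gene, was even, at 823.8 to 1004 FPKM in TSa2i-14 and 902.8 to 929.7 FPKM in TSa2i-C57.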
